A study of Mus musculus with 2 samples.

Results

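The mevalonate arm of sterol synthesis was followed here through 8 genes named from general knowledge of the pathway, in the order of its steps: Acat2, Hmgcs1, Mvk, Pmvk, Mvd, Idi1, Fdps and Ggps1. Every probe set (a group of short probes for one transcript) that the array's annotation assigns to one of these genes was taken. That gave 18 of 45101 probe sets, covering 7 of the 8 genes, and 0 of the 18 were shared with another gene. Acat2 had no probe set in the annotation used and was not analysed here. Ggps1 acts one step beyond farnesyl diphosphate, so it lies outside the arm in the strict sense and is given last.

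The samples were mouse livers from a study of antagomirs, cholesterol-linked oligonucleotides designed to silence a microRNA in the living animal. One group received antagomir-122, directed at the liver microRNA miR-122, and the other received the scrambled oligonucleotide mm-antagomir-122. Both groups were injected with 80 mg/kg of body weight per day for 3 days and were killed 24 h after the last dose. Each group was 1 array of RNA pooled from 3 livers, so the spread between animals was not measured, no test between the groups was possible and no p-value is given. Strain, sex and age are not given in the sources used here.

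The mevalonate pathway builds the five-carbon units of all isoprenoids from acetyl-CoA in the cytosol and peroxisomes of the cell. Its product farnesyl diphosphate is the branch point to squalene and cholesterol, to geranylgeranyl diphosphate for protein prenylation, and to ubiquinone and dolichol. In the liver the transcription factor SREBP-2 raises the genes of the arm when sterols are low, acting at their promoters together with NF-Y, which binds CCAAT boxes, and Sp1, which binds GC boxes.

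The stretch upstream of a gene is shown for 4 members, picked with their ratios known. Whether control at these promoters had a part in the ratios was not tested. Hmgcs1, Mvk and Idi1 were lower in the antagomir-122 pool and Ggps1 was not, as described further on. Each sequence is the 250 bases before the annotated start, read 5′ to 3′ on the gene's strand, from RefSeq on GRCm38.p6. Capitals mark matches, on either strand, to CCAAT, to GGGCGG and to TCACNCCAC, a form of the sterol regulatory element. The windows are chr13:119690101-119690350 (plus strand) for Hmgcs1, chr5:114444019-114444268 (plus) for Mvk, chr13:8885356-8885605 (plus) for Idi1 and chr13:14063489-14063738 (minus) for Ggps1.
Hmgcs1: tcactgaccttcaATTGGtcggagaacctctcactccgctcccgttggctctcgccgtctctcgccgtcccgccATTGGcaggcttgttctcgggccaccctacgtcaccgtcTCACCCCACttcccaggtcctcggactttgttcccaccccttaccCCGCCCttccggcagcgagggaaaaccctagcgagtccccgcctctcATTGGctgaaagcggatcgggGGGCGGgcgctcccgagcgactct
Mvk: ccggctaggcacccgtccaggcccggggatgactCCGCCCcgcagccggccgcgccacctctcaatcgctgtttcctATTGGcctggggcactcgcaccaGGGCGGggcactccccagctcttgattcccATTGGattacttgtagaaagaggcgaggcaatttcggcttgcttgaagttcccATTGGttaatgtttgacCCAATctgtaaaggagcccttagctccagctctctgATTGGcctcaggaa
Idi1: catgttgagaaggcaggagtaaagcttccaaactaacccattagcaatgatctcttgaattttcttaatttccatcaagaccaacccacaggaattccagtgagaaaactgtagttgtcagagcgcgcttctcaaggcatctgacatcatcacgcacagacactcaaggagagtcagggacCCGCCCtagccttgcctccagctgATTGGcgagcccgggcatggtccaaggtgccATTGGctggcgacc
Ggps1: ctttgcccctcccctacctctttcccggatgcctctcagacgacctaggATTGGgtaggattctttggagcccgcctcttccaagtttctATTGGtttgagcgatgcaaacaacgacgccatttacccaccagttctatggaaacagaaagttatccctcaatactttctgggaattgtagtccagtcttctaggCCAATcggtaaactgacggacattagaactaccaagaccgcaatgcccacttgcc

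The motifs were searched in 8 windows of 7 members, 2 of them for Pmvk. Fdps had no window and was not searched. CCAAT was found upstream of both lower and higher members. Hmgcs1 had 3 matches, Mvk 5, Idi1 2 and Ggps1 3. Among the windows not printed, Mvd had 2, the first of the alternative starts of Pmvk had 1, and the second start of Pmvk and the window of Acat2 had 0. Over 32817 promoter windows of the same length, 33.8% held at least 1 match and 10.1% held 2 or more. GGGCGG was found in 5 of the 8 windows searched (Acat2, Hmgcs1, Mvk, Mvd and Idi1), with 2 matches in Hmgcs1 and Mvk, against 32.7% of all windows. The letters TCACNCCAC were found upstream of Hmgcs1 alone among the 8 windows searched, from base -137 to -129, against 1.05% of all windows. CACGTG, the E-box core, had 0 matches in the 8 windows and was present in 6.02% of all. None of these motifs overlaps another in the printed windows. A match describes letters in the window and does not show binding.

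**Figure D1:**
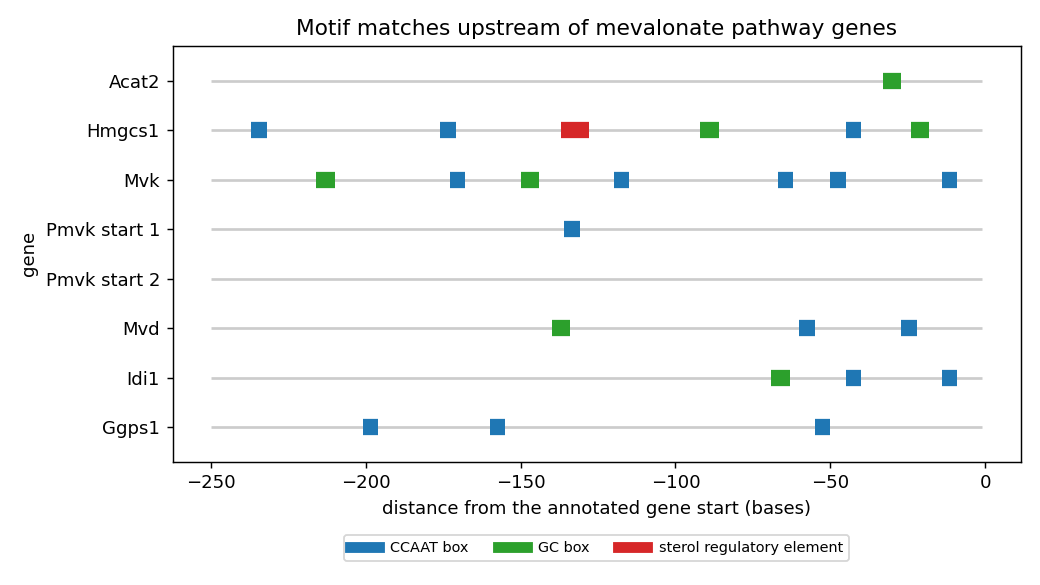
Position of motif matches in the 250 bases before each annotated start; the x axis is the distance from the start in bases and each row is a gene, with both annotated starts for Pmvk. Hmgcs1 holds the single sterol regulatory element match, and Mvk holds the most CCAAT boxes, 5.

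The measured genes from Hmgcs1 to Fdps had lower signals in the antagomir-122 pool, and Ggps1 had a higher one. Of the 7 genes, 6 had a log2 ratio (antagomir-122 signal over mm-antagomir-122 signal) below 0, whereas 49.6% of all 10003 genes measured above the floor did. The floor was a signal of 238, the 60th percentile of the mean log2 signal, and the brightest probe set above it stood for its gene. Fdps, Mvk and Idi1, 3 of the 7, were at least 1.5-fold lower. Across all genes 2.62% were at least 1.5-fold lower (262 genes) and 5.12% at least 1.5-fold higher (512 genes). The median log2 ratio was -0.50 over the 7 genes and 0.00 over all genes. Fdps and Mvk were among the 31 genes, 0.31% of all, that were at least 2-fold lower. Lower sterol synthesis genes are already a published observation on these samples, so the count is not independent evidence of that direction.

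The size of these ratios was read against the spread between probe sets of one gene, an SD of 0.28 on the log2 scale (1.21-fold) over 3860 genes with a second probe set. That spread holds measurement error and transcript differences, and leaves out the spread between animals. Over single probe sets, 11 of the 14 above the floor lay below 0 (50.7% of all 16023 did) and 7 were at least 1.5-fold lower (3.24% of all). The 14 belong to 7 genes, and probe sets of one gene are not separate observations. Hmgcs1 gave 3 of the lower ones, Idi1 gave 2, and Mvk and Fdps gave 1 each.

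**Figure D2:**
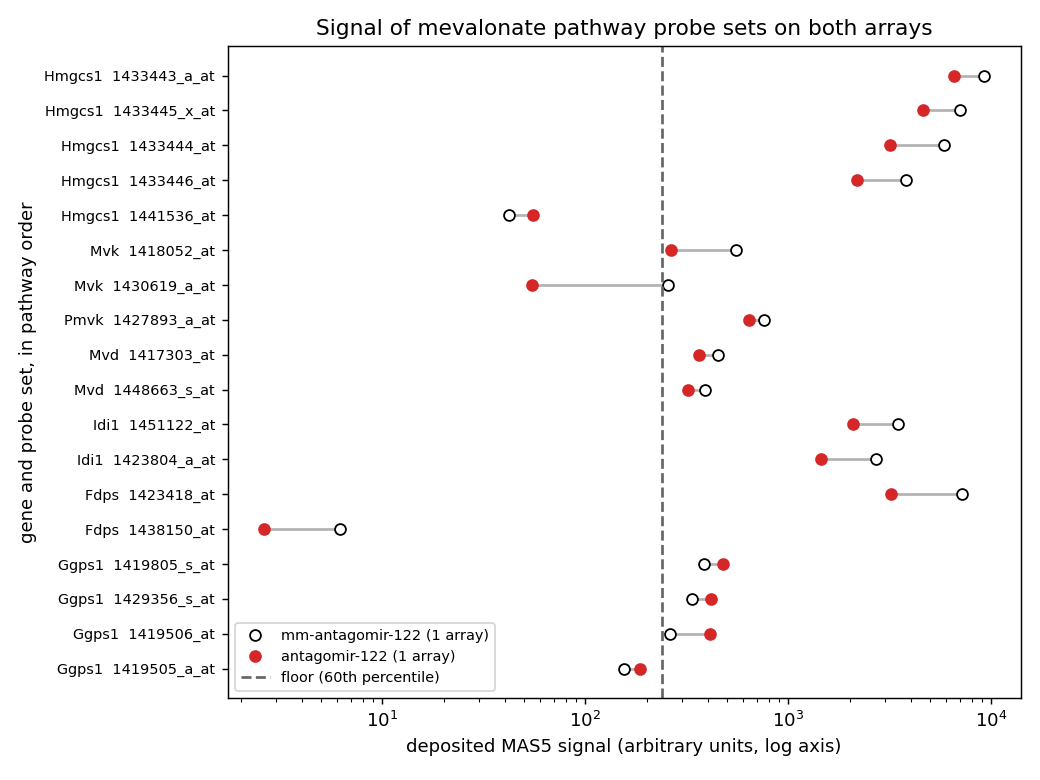
Deposited signal (log axis) of the 18 probe sets in pathway order, with mm-antagomir-122 as open circles, antagomir-122 as filled circles and the floor of 238 as a dashed line. The filled circle lies left of the open one in all 11 probe sets of Hmgcs1 to Fdps whose mean is above the floor, and right of it in the 3 of Ggps1.

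The first measured enzyme is Hmgcs1, the cytosolic HMG-CoA synthase, which condenses acetoacetyl-CoA with acetyl-CoA. It had 5 probe sets. The brightest, 1433443_a_at, had signals of 6551 (antagomir-122) and 9246 (mm-antagomir-122), a log2 ratio of -0.50. Probe set 1433445_x_at had 4581 and 6974, a log2 ratio of -0.61. The signals were 3165 and 5852 on 1433444_at, a log2 ratio of -0.89, and 2188 and 3786 on 1433446_at, a log2 ratio of -0.79. All 4 were thus lower in the antagomir-122 pool, and 3 of them were at least 1.5-fold lower although the brightest was not. Among the 1409 genes with at least 3 probe sets above the floor, 19.4% had all of them below 0. The suffix _a marks probes that match several transcripts of one gene, and _x marks probes that may cross-hybridise. The pair without a suffix had the lowest ratios. The fifth, 1441536_at, was far under the floor (55.0 and 41.8), where a signal may not differ from background, which was not measured here.

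Mvk encodes mevalonate kinase, which adds the first phosphate to mevalonate. On 1418052_at its signals were 263.5 and 554.5, so the antagomir-122 pool stood at 47.5% of the control pool, 2.10-fold lower (log2 ratio -1.07). That was rank 24 from the lowest of 10003 genes. The antagomir-122 signal lay just above the floor, and the gene rests on this 1 probe set. The other, 1430619_a_at, read 54.3 and 255.6. Its antagomir-122 signal was under the floor, so only a bound of at least 1.07-fold lower is given. Both were lower in the antagomir-122 pool.

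The following pair of enzymes had smaller ratios. Pmvk, phosphomevalonate kinase, had signals of 641.2 and 760.0 on its only probe set, 1427893_a_at. Its log2 ratio of -0.25 was smaller than 1 SD of the probe set spread. Mvd, the decarboxylase that forms isopentenyl diphosphate, had 364.5 and 450.5 on 1417303_at and 321.4 and 390.0 on 1448663_s_at, where the suffix _s marks probes shared by several transcripts or genes. These gave log2 ratios of -0.31 and -0.28, which differ little from each other and from 1 SD of the spread. Of the 500 genes closest to each in signal, 97 were at or below the ratio of Pmvk and 89 at or below that of the brighter Mvd probe set. Neither gene was at least 1.5-fold lower on any probe set.

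Idi1 encodes isopentenyl diphosphate isomerase, which makes dimethylallyl diphosphate. Its signals were 2091 and 3459 on 1451122_at, 1.65-fold lower (log2 ratio -0.73), and 1451 and 2714 on 1423804_a_at, 1.87-fold lower (log2 ratio -0.90). Both probe sets were therefore at least 1.5-fold lower. Of 3860 genes with at least 2 probe sets above the floor, 15 (0.389%) had all of them at least 1.5-fold lower. Its paralog Idi2, which follows it on the chromosome in RefSeq order, had signals of 3.5 and 6.3, far under the floor, so no fold is given.

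Fdps, farnesyl diphosphate synthase, joins the five-carbon units into farnesyl diphosphate and had the lowest ratio of the 7 genes. On 1423418_at the signals were 3201 and 7138, so the antagomir-122 pool stood at 44.8% of the control pool, 2.23-fold lower (log2 ratio -1.16). It ranked 18 from the lowest of all 10003 genes. Of the 500 genes nearest to it in signal, 0 had a ratio as low, while 3 of the 500 nearest to Mvk and 5 of the 500 nearest to the brighter Idi1 probe set did. Fdps rests on this 1 probe set, since 1438150_at read 2.6 and 6.2, far below the floor.

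Ggps1, geranylgeranyl diphosphate synthase, uses farnesyl diphosphate to make the lipid that anchors Rab and other small GTPases to membranes. It was the only measured member with a ratio above 0. Its signals were 477.4 and 382.9 on 1419805_s_at, a log2 ratio of 0.32, and 414.1 and 333.8 on 1429356_s_at, a log2 ratio of 0.31. Probe set 1419506_at, without a suffix, had 410.1 and 260.9 and was 1.57-fold higher. All 3 were higher in the antagomir-122 pool, as were all of them in 16.7% of the 1409 genes with at least 3 probe sets. The fourth, 1419505_a_at, lay under the floor on both arrays (185.5 and 154.8).

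In order of ratio, the genes ran Fdps, Mvk, Idi1, Hmgcs1, Mvd, Pmvk and Ggps1. The spread of a difference between 2 genes is 0.39 on the log2 scale. The first 5 gaps between neighbours in this order, from 0.06 to 0.35, were smaller than that spread. The gap from Pmvk to Ggps1, 0.56, was larger. The ends of the order, Fdps and Ggps1, differed by 1.48. The position of a step in the pathway did not order the ratios, since the negative ratios nearest to 0, Pmvk and Mvd, lay between Mvk and Idi1.

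**Figure D3:**
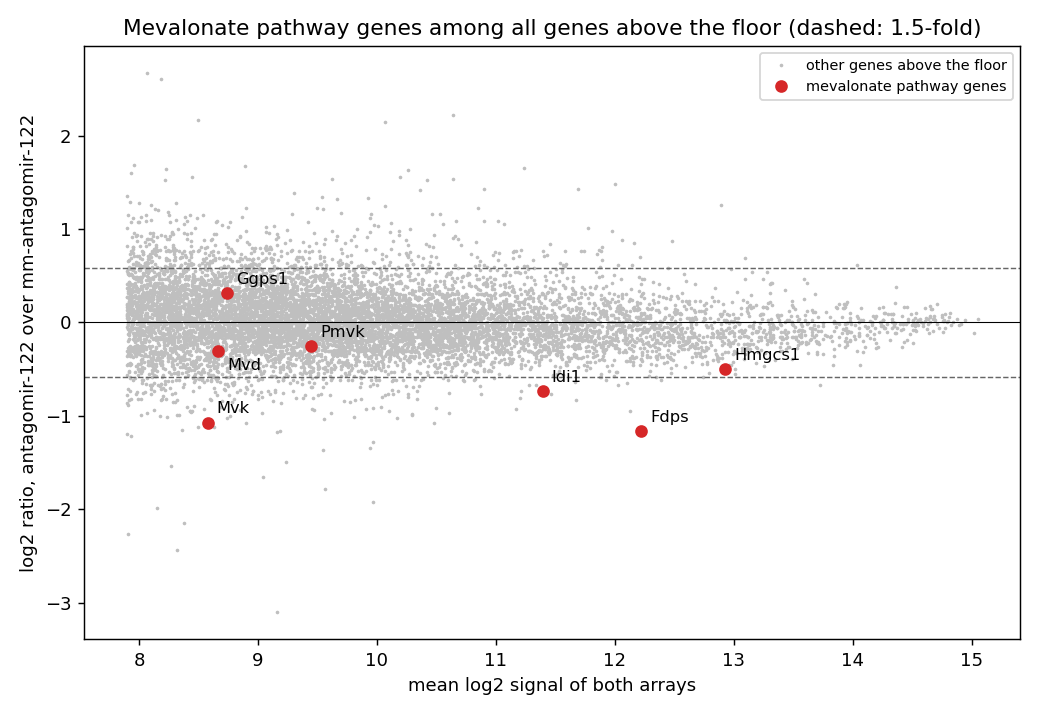
Log2 ratio against mean log2 signal for the 10003 genes above the floor (grey) and the 7 mevalonate genes (red), with dashed lines at 1.5-fold. Fdps, Idi1 and Hmgcs1 lie at the lower edge of the genes of like signal, and Pmvk, Mvd and Ggps1 lie within the bulk.

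The sizes of the ratios depend on how the arrays are put on a common scale. So do the direction of Pmvk, among the 7 genes, and the share of all genes below 0. The 18 probe sets for spiked hybridization controls had a median log2 ratio of -0.27, and 17 of them were lower on the antagomir-122 array. Several of the 18 report the same spiked transcript, so they are not 18 separate observations. Scaled on these controls, all genes shift up by 0.27. Fdps and Mvk were then still at least 1.5-fold lower (log2 ratios -0.88 and -0.80), Idi1 and Hmgcs1 had -0.45 and -0.22, Mvd and Pmvk had -0.03 and 0.03, and Ggps1 passed 1.5-fold higher at 0.59. Of all genes, 0.63% were then at least 1.5-fold lower, 16.9% at least 1.5-fold higher and 15.9% below 0. With quantile normalization and loess correction, 3 of the 7 were at least 1.5-fold lower, against 3.22% and 3.28% of all genes. With the mean over probe sets there were 4, Hmgcs1 (-0.70) included, against 2.43%. At a threshold of 1.4-fold there were also 4, against 4.85%. Lower genes were 33.9% of those past 1.5-fold as deposited, 48.4% with median centring and 3.59% when scaled on these controls. Within each scaling the 6 genes from Hmgcs1 to Fdps had ratios below that of Ggps1. Median centring and the hybridization controls shift every gene by the same amount, so they could not change this order.

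**Figure D4:**
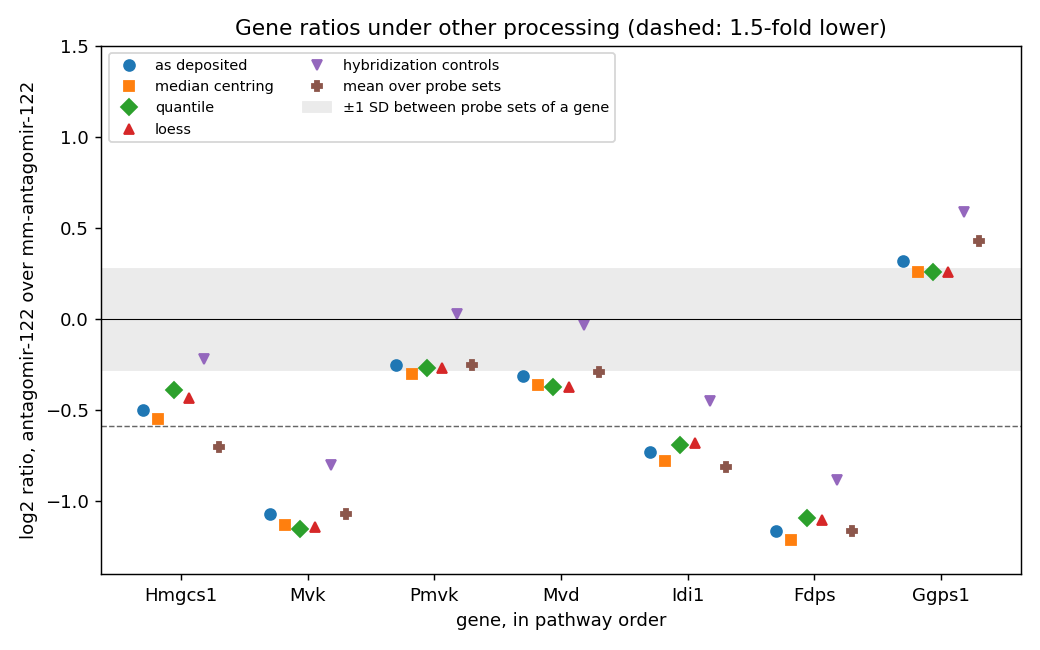
Log2 ratio of the 7 genes in pathway order under 6 ways of processing, with a grey band of 1 SD of the probe set spread (0.28) around 0 and a dashed line at 1.5-fold lower. Fdps and Mvk stay under the dashed line in each, and Pmvk turns slightly positive (0.03) on the hybridization controls.

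Genes that supply or use the products of the arm differed among themselves. Of the 8 acetyl-CoA and ketone body genes above the floor, 6 had ratios below 0, against 49.6% of all genes. The median of the 8 was -0.21. Acss2, the cytosolic acetyl-CoA synthetase, was 1.93-fold lower (3223 and 6215), with log2 ratios of -0.95 and -0.81 on its probe sets. Aacs, the acetoacetyl-CoA synthetase that feeds ketone bodies into this pathway, was 1.78-fold higher (1639 and 923), with 0.83 and 0.65. These enzymes, which both yield substrate of Hmgcs1, thus had ratios of opposite sign. Bdh1 and Oxct1, of ketone body turnover, had log2 ratios of -0.50 and 0.51 on the brightest probe sets, and one of Oxct1 had -0.04. Acat1, the mitochondrial thiolase, had log2 ratios from -0.62 to -0.19 over 3 probe sets.

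Genes downstream of farnesyl diphosphate were described as 2 lists, which share Fdft1, and the difference between the lists was not tested. Of 17 measured genes of isoprenoid use, 1 was at least 1.5-fold lower (2.62% of all genes) and 0 were 1.5-fold higher (5.12% of all genes). The median log2 ratio of the 17 was -0.01. The lower one was Fdft1, squalene synthase, the entry to sterols, at 3303 and 5264 (1.59-fold lower) and with log2 ratios of -0.67 and -0.58. The prenyltransferase subunit Fntb had 0.31, the tRNA isopentenyltransferase Trit1 had -0.31, and Chm, a Rab escort protein, had -0.25, with another probe set at 0.28. All 12 measured genes from squalene synthesis to cholesterol had ratios below 0 on their brightest probe sets, against 49.6% of all genes. The median of the 12 was -0.41, and 5 were at least 1.5-fold lower, against 2.62% of all genes. Hsd17b7, Sc5d, Tm7sf2, Msmo1 and Lbr, at -0.29, -0.23, -0.09, -0.07 and -0.03, lay within the range of the isoprenoid use genes other than Fdft1. With Fdft1 counted in that range, Cyp51 and Ebp, at -0.50 and -0.33, lay within it too. Another probe set of Hsd17b7 had -0.84. One other probe set of Sc5d had 0.85. Of 15 genes of sterol regulation and transport, 0 passed 1.5-fold, against 2.62% of all genes lower and 5.12% higher. The median of the 15 was -0.02. Srebf2, which encodes SREBP-2, had signals of 589.4 and 595.6, a log2 ratio of -0.02, and another probe set at -0.35. Stard4, Srebf1, Mbtps1 and Npc1 had -0.34, -0.33, -0.29 and -0.19.

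**Figure D5:**
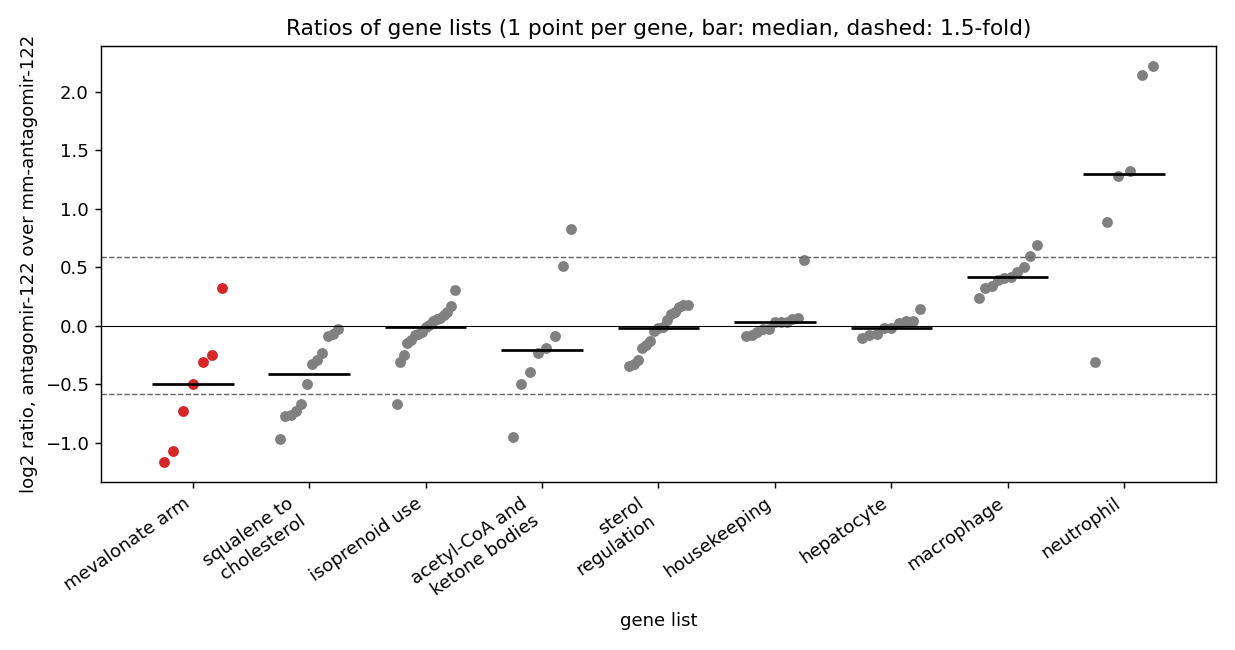
Log2 ratio of each gene above the floor in 9 lists, 1 point per gene, with the median as a bar and dashed lines at 1.5-fold. The medians are -0.50 for the mevalonate arm, -0.41 from squalene to cholesterol, -0.01 for isoprenoid use and 1.30 for neutrophil markers.

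The chromosomal neighbours of the members were also looked up. Taking the protein-coding gene on each side in RefSeq order gave 16 neighbours, of which 10 were above the floor. Of these 10, 3 had a log2 ratio below 0 when rounded, against 49.6% of all genes by unrounded ratios. Pklr rounded to 0.00 but had a slightly lower signal in the antagomir-122 pool (2634.8 and 2637.7). The median of the 10 was 0.16. Of them, 0 were at least 1.5-fold lower (2.62% of all genes). Wdr37, beside Idi1, at 0.96, was the 1 at least 1.5-fold higher (5.12% of all genes). Mmab, of vitamin B12 metabolism, starts next to Mvk on the opposite strand, and 241 of the 250 bases printed for Mvk also lie in the window of Mmab. Its signals were 308.7 and 382.5, a log2 ratio of -0.31, against -1.07 for Mvk. Rusc1 and Pklr, beside Fdps, had -0.28 and 0.00. Arid4b, beside Ggps1, had 0.23, and Pbxip1, beside Pmvk, had 0.10.

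Cell composition was described with marker lists, because in bulk RNA fewer cells of a type and less RNA per cell cannot be told apart. The 9 measured hepatocyte markers had a median log2 ratio of -0.02, with summed signals of 194676 (antagomir-122) and 192911 (mm-antagomir-122), high on both arrays. All 10 macrophage markers had ratios above 0 (median 0.41, summed signals 61055 and 44325), while 49.6% of all genes lay below 0. Of 6 neutrophil markers above the floor, 5 were at least 1.5-fold higher (median 1.30), against 5.12% of all genes, and Elane had -0.31. For Mpo and Ltf the mm-antagomir-122 signals (164.2 and 197.8) lay under the floor. Those genes passed the floor through their antagomir-122 signals, so their folds are uncertain. Over all 7 neutrophil markers the summed signals were 8026 and 2461. For the 5 lymphocyte markers above the floor the median was 0.67. One of them, Cd79a, also passed the floor through its antagomir-122 signal (279.5), with an mm-antagomir-122 signal of 207.5 under it. For the 6 endothelial and 6 stellate markers the median was -0.13 and 0.22. Of the cholangiocyte markers with a probe set, 0 were above the floor. No marker with a probe set was listed at 0 on its brightest one. The part of these cells in the ratios of the mevalonate genes was not tested. The 11 housekeeping genes had a median of 0.03, with Polr2a the farthest at 0.56.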

How the data were processed

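Total RNA pooled from 3 livers per group was hybridised to 1 single-colour array per group. The values deposited by the authors are linear intensities, 1 per probe set. Per the submitters' processing notes they come from MAS5. No version, genome build or detection calls are given in the sources used here. The 2% trimmed mean was 500.0 on both arrays, so the deposited intensities had been scaled to 1 target, which does not show that equal amounts of RNA give equal signals. The number of arrays limits the precision.

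Log2 ratios were computed from the intensities as deposited, with no pseudocount. Of 45101 probe sets, 64 were controls, 34945 had 1 gene, 932 had several and 9160 had none in the platform annotation. Symbols were updated by gene identifier through RefSeq (34741 matched, 0 changed). A floor at the 60th percentile left 16023 probe sets of 10003 genes. Genes were named by membership, or as the up to 4 largest ratios of another list, and other names were chosen after their values were seen. The members and lists were chosen with earlier results of these data known. Alternatives were median centring, quantile and loess (span 0.3) corrections, hybridization controls, floors at the 40th and 80th percentiles, no floor, signals raised to the floor, a pseudocount of 30, other probe set choices and thresholds of 1.4-fold and 2-fold. The computation of the ratios was run on simulated data with planted changes, which checks the computation and not the measured ratios. Python 3.11.15, pandas 2.3.3, scipy 1.17.1 and statsmodels 0.14.6 were used.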

Additional observations from a re-analysis of the deposited data

How the results depend on the processing

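Over the alternatives that keep the 1.5-fold threshold, the number of mevalonate genes at least 1.5-fold lower ran from 2 to 4. These counts are not all out of 7 genes. They were 2 of 4 with the floor at the 80th percentile and 2 of 4 with the second brightest probe set. Without suffixed probe sets the count was 4 of 6. For these settings no share over all genes was computed, for the 1.5-fold counts or for the counts below 0. At a threshold of 1.4-fold there were 4 of 7, and at 2-fold 2 of 7. The median log2 ratio of the genes ran from -0.81 to -0.22, the latter when scaled on the hybridization controls. It was -0.81 over the 6 genes that keep a probe set without a suffix, where Hmgcs1 had -0.89 and Ggps1 0.65. With the second brightest probe set, 3 genes lay below 0, of the 4 genes that have one. With the floor at the 80th percentile, 4 genes remained measured and all 4 lay below 0. Fdps, Mvk, Idi1, Hmgcs1 and Mvd had ratios below 0 under every alternative that measured them. The ranges were -1.21 to -0.88 for Fdps, -1.15 to -0.80 for Mvk and -0.90 to -0.45 for Idi1. Hmgcs1 had -0.89 to -0.22, and Mvd had -0.37 to -0.03, which comes close to 0. Ggps1 had 0.26 to 0.65. Pmvk ran from -0.30 to 0.03. Allowing probe sets shared between genes changed no value for these genes, since none is shared. No paired analysis was possible because each group has 1 array, and no array could be left out for the same reason.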
